A study of Mus musculus with 18 samples.

Results

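Genes of protein folding were followed in the nuclear RNA of mouse embryonic stem cells of the C57BL/6 strain: Hspa1a, Hspa1b, Hspa8, Hsph1, Dnajb1, Hsp90aa1, Hsp90ab1, Hspa5, Herpud1 and Hspd1. They were taken by name from the gene count table of all 18 libraries, as genes of the cytosolic, endoplasmic reticulum (ER) and mitochondrial chaperone systems, and make up 10 of its 54446 genes. There were 9 groups of 2 libraries each. Libraries labelled Ythdc1 cKO and libraries of their control were collected after 0, 3 and 6 h of actinomycin D, an inhibitor of transcription. Lines labelled Mettl3 KO1 and Mettl3 KO2 and their control all carry a time of 0 h of the same drug. Mettl3 encodes the catalytic subunit that writes N6-methyladenosine (m6A) on RNA, and Ythdc1 the nuclear protein that reads it. All groups share the culture medium, with serum, LIF, CHIR99021 and PD0325901. The labels do not state how the deletions were made or whether each Mettl3 line is 1 clone. Nor do they say that replicates came from separate cultures, so p-values reflect only how far these libraries spread, and that spread may be technical.

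Chaperones bind unfolded or partly folded proteins. The Hsp70 proteins (Hspa1a, Hspa1b, Hspa8) work in cycles with J-domain partners such as Dnajb1 and nucleotide exchange factors such as Hsph1, and hand some clients to Hsp90 (Hsp90aa1, Hsp90ab1). In heat or protein stress the transcription factor HSF1 binds heat shock elements and raises Hspa1a, Hspa1b, Dnajb1, Hsph1 and Hsp90aa1, whereas Hspa8 and Hsp90ab1 are abundant without stress. Hspa5 (BiP) is the Hsp70 of the ER and Herpud1 an ER membrane protein of ER-associated degradation, and both are targets of the unfolded protein response. Hspd1 is the mitochondrial chaperonin Hsp60, which works with Hspe1.

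The sequences that place these genes in their known control are the 250 bases before the annotated start, shown for the pair Hspa1a and Hspa1b because both fell by more than 2 log2 units in each Mettl3 line relative to the other genes, and for Hspd1 and Hspa5 because their elements differ from that pair. They were taken from RefSeq (build GRCm38.p6), which had promoter entries for 7 of the 10 genes; Hspa8, Hsp90aa1 and Hsp90ab1 had none. Capitals mark a heat shock element core (GAANNTTC or TTCNNGAA) or, in Hspa5, the ER stress response element ERSE (CCAAT and, after a fixed spacer, CCACG), searched on both strands; the palindromic cores overlap one another where units follow in a row.
Hspa1a, chr17:34972157-34972406, minus strand: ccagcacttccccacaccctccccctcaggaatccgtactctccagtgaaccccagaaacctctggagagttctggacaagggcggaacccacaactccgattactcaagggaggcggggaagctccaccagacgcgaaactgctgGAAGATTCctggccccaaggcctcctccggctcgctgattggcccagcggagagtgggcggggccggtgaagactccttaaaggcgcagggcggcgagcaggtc
Hspa1b, chr17:34959239-34959488, minus strand: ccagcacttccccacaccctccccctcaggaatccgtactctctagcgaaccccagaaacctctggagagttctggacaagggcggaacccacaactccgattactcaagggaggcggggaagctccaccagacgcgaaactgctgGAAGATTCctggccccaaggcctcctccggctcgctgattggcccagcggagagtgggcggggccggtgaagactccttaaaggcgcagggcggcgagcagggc
Hspd1, chr1:55087933-55088182, minus strand: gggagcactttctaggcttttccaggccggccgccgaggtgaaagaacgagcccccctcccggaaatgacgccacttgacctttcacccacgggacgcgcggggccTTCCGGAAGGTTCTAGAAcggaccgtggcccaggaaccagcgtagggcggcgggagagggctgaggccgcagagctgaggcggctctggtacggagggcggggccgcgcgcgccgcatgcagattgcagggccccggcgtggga
Hspa5, chr2:34771840-34772089, plus strand: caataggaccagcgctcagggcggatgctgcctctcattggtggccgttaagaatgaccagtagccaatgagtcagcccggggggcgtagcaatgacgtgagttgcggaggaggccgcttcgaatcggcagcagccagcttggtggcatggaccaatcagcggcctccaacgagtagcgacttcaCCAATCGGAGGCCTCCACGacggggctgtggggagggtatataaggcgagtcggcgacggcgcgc
The Hspa1a and Hspa1b windows were identical at 247 of 250 bases, with the differences C44T, T47C and T249G (Hspa1a base, position from 1 at the 5′ end of the window, Hspa1b base). Both hold 1 core, 104 bases before the start. A core in either order occurs in 15.1% of 32851 RefSeq promoter windows of 300 bases, 3 units in a row in 0.603% and the ER stress element in 0.119%. A run of at least 3 units lay in 1 of 2 Hspd1 windows, the one shown, and, just after the start, in both Hsph1 windows. The Hspd1 window shown lies before an inner start, within the annotated span of the gene. The window before its outer start held 0 cores. The windows of Dnajb1 and Herpud1 held no match to either searched form. Only 1 spacing of the ER stress element was searched. The Herpud1 window holds attgggccacg, where the reverse of CCAAT and CCACG lie closer together than in that form. A match describes letters and shows no binding.

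The libraries held 4950973 to 30989044 reads assigned to genes and 3932 to 33396 reads of the ERCC spike-in, a set of synthetic RNAs added in equal volume. All 8 embryonic stem cell markers (such as Pou5f1 and Nanog) reached 1 CPM (counts scaled to a common library size) in every library. Spike-in reads were 0.0277% and 0.0272% of gene reads in the cKO 3 h libraries, and 0.0772% to 0.189% in the other Ythdc1 libraries. Results are therefore given on the composition scale (TMM, a scaling that holds the bulk of genes level) and, where it matters, on the spike-in scale. With spike-ins the median change of all genes in a contrast ran between -0.964 and 2.36 on the log2 scale, and with TMM between -0.0335 and 0.0653. The label check was partial. Ythdc1 stood at 14.5 and 15.3 CPM in cKO against 51.9 and 50.3 CPM in control at 3 h, and at 19.2 and 18.7 CPM in cKO against 51.3 and 47.2 CPM in control at 6 h. At 0 h it stood at 143 and 120 CPM in cKO against 145 and 132 CPM in control, and did not pass the test (log2 fold change -0.07 ± 0.079, adjusted p = 0.557, edgeR). Mettl3 stood at 32.6 and 31.3 CPM in KO1, 22.7 and 22.1 CPM in KO2, and 36.6 and 31.9 CPM in control. Mettl3 did not pass the test in KO1 (adjusted p = 0.316, edgeR) and was 0.61 ± 0.081 lower in KO2, or -0.05 with spike-ins (adjusted p = 0.637, edgeR). Counts per gene do not show which part of a gene was deleted, and genotypes below are those of the labels.

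Gene positions are those of GENCODE M21 on GRCm38. On chromosome 17 are Hspa1a (ENSMUSG00000091971.3) at chr17:34969190-34972156 (minus strand), Hspa1b (ENSMUSG00000090877.3) at chr17:34956436-34959238 (minus strand) and Hsp90ab1 (ENSMUSG00000023944.14) at chr17:45567775-45573271 (minus strand). Elsewhere are Hspd1 (ENSMUSG00000025980.14) at chr1:55077835-55088243 (minus strand), Hspa5 (ENSMUSG00000026864.13) at chr2:34771970-34777547 (plus strand), Hsph1 (ENSMUSG00000029657.15) at chr5:149614287-149636376 (minus strand) and Dnajb1 (ENSMUSG00000005483.10) at chr8:83608193-83612653 (plus strand). The others are Herpud1 (ENSMUSG00000031770.16) at chr8:94386438-94395377 (plus strand), Hspa8 (ENSMUSG00000015656.17) at chr9:40800984-40810087 (plus strand) and Hsp90aa1 (ENSMUSG00000021270.13) at chr12:110690605-110702728 (minus strand). The 10 RNAs differed widely in level. Per exon length, Hsp90ab1 was the most abundant in the Ythdc1 control at 0 h (933 and 933 RPKM, reads per kilobase of exon, scaled to library size), followed by Hspa8 (315 and 314 RPKM). Hsp90aa1 (216 and 199 RPKM) and Hspa5 (202 and 196 RPKM) overlapped. Hspd1 had 153 and 152 RPKM, Hsph1 37.6 and 38.7 RPKM, Dnajb1 11.9 and 10.8 RPKM, and Herpud1 5.30 and 6.22 RPKM. Hspa1b (1.20 and 1.74 RPKM) and Hspa1a (0.402 and 0.566 RPKM) came last. Hspa1a had 8 to 142 reads per library and Hspa1b 26 or more, and of their 50-base stretches 66.3% and 62.3% also occur in transcripts of other genes, mainly in each other (also 47.5% for Hsp90aa1, 42.1% for Hspd1 and 39.4% for Hspa8), so counts of these genes are uncertain where copies could share reads. Hspa1a also overlaps the opposite-strand gene Gm20481 over 19% of its exon bases, and since the strand setting of the counting is not stated, reads of that pair cannot be told apart.

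In the Mettl3 lines, Hspa1a, Hspa1b and Dnajb1 were much lower than in control, and Hsph1 and Hsp90aa1 were lower by less. Hspd1 and, by less, Hspa5 were higher. All 10 genes passed the test (edgeR, Benjamini-Hochberg adjusted p under 0.05 over 21802 genes) in both lines, at a background of 46.1% of genes called in KO1 and 50.8% in KO2. In KO1, 4 genes were higher and 6 lower (background 23.9% higher and 22.2% lower), and in KO2, 2 were higher and 8 lower (24.4% higher and 26.4% lower). Their median change was -0.391 in KO1 and -0.513 in KO2, beside -0.0148 and -0.0297 over all genes. With spike-ins, 4 were higher and 6 lower in KO1 (background 48.5% called, 34.8% higher and 13.7% lower), and 5 higher and 5 lower in KO2 (background 63.4% called, 56.7% higher and 6.69% lower), with medians of -0.208 in KO1 and 0.0501 in KO2. Of the 8 embryonic stem cell markers, 8 were higher in KO1 (summed level 3560 and 3580 CPM) and 8 lower in KO2 (2180 and 2190 CPM), against 2890 and 2900 CPM in control. With spike-ins, 8 of these markers were higher and 0 lower in KO1, and 6 higher and 2 lower in KO2 (median 0.265), so their direction in KO2 rests on the scaling. The part of the marker differences in the chaperone values was not tested.

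Hspa1b, the inducible Hsp70, had 6.22 and 4.26 CPM in KO1, 3.12 and 2.06 CPM in KO2, and 24.6 and 26.3 CPM in control. All 4 knockout libraries lay far below both controls. Both lines were set against the same 2 control libraries, which were high in Hspa1b beside the other experiment. Scaled over all 18 libraries, they had 23 and 24.5 CPM, against 3.46 and 5.06 CPM in the Ythdc1 control at 0 h. The part of that control level in the changes of Hspa1b was not tested. The log2 fold change was -2.26 ± 0.13 in KO1 (adjusted p = 1.61e-24, edgeR) and -3.28 ± 0.16 in KO2 (adjusted p = 2.58e-30, edgeR; ± is the SE throughout). Its near-identical neighbour Hspa1a had 1.66 and 0.955 CPM in KO1, 0.370 and 0.538 CPM in KO2, and 5.203 and 6.043 CPM in control. Its log2 fold change was -2.07 ± 0.27 in KO1 and -3.63 ± 0.33 in KO2, but KO2 held only 9 and 12 reads of it. Dnajb1, the J-domain partner that stimulates the Hsp70 ATPase, had 30.1 and 28.3 CPM in KO1, 27.1 and 25.9 CPM in KO2, and 75.6 and 71.2 CPM in control. Its log2 fold changes were -1.33 ± 0.066 and -1.47 ± 0.067, and the groups did not overlap. Hsph1, the Hsp110 exchange factor, was lower by less, with 183 and 192 CPM in KO1, 155 and 156 CPM in KO2, and 259 and 257 CPM in control. Hsp90aa1, the inducible Hsp90, had 4655 and 4656 CPM in KO1, 3837 and 3625 CPM in KO2, and 5670 and 5943 CPM in control. These 5 genes stayed lower in both lines on the spike-in scale, where Hsp90aa1 moved least (-0.14 ± 0.028 in KO1 and -0.08 ± 0.028 in KO2) and Hspa1b still by -2.07 ± 0.14 and -2.72 ± 0.16.

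**Figure D1:**
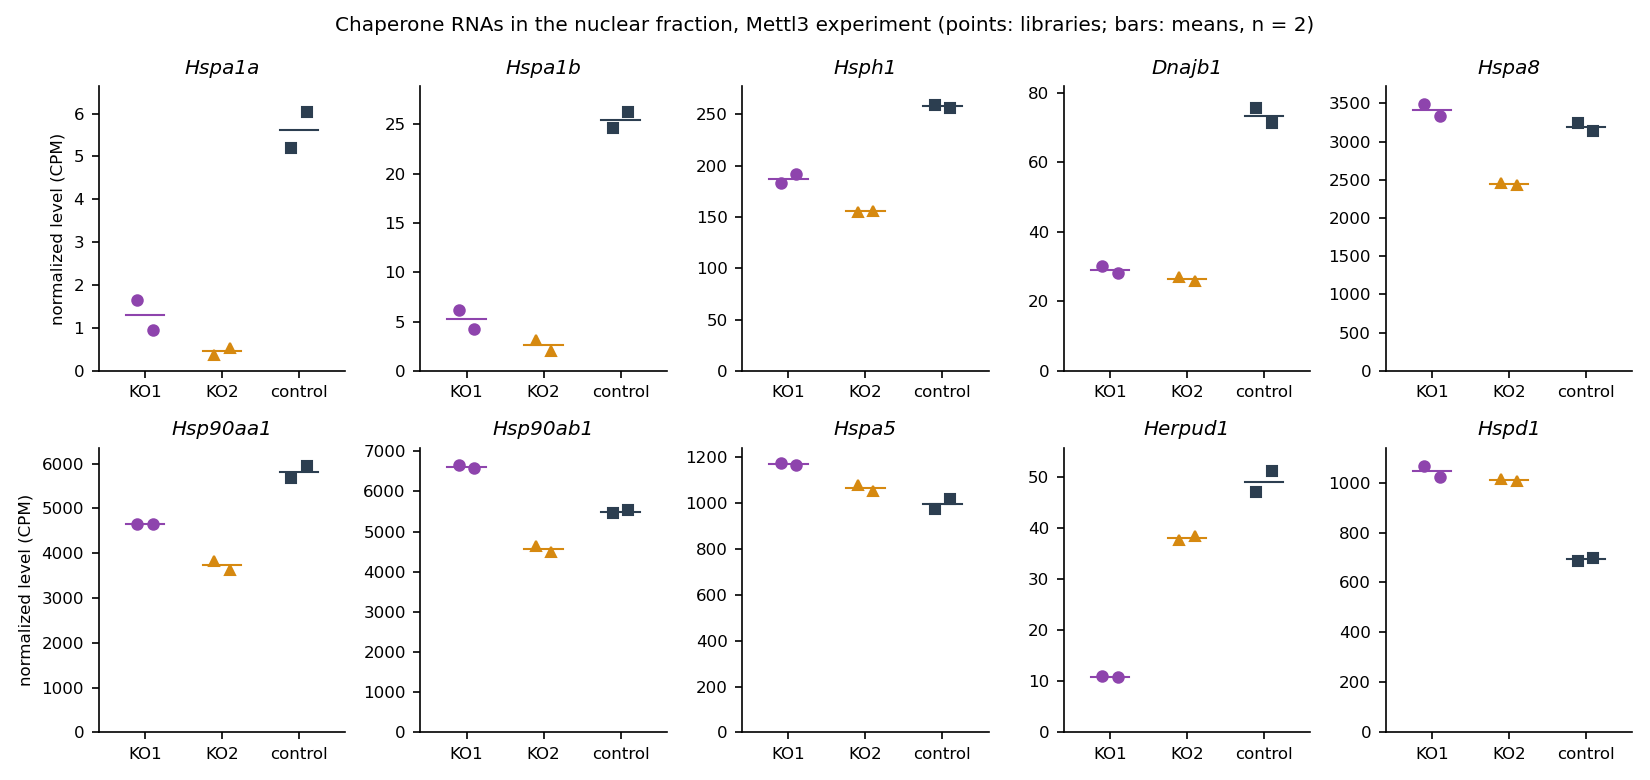
Normalized level (CPM, y axis) of each of the 10 RNAs in the Mettl3 KO1, KO2 and control libraries, with points for libraries and bars for means of 2. The knockout points of Hspa1a, Hspa1b, Dnajb1, Hsph1, Hsp90aa1 and Herpud1 all lie below the control points, and those of Hspd1 and Hspa5 above them.

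The constitutive genes went opposite ways in the lines with TMM. Hspa8, the abundant Hsp70, had 3495 and 3333 CPM in KO1, 2452 and 2425 CPM in KO2, and 3237 and 3141 CPM in control. It was called 0.10 ± 0.024 higher in KO1, a call lost without KO1 replicate 1 (adjusted p = 0.171, edgeR), and 0.39 ± 0.024 lower in KO2. Hsp90ab1, the constitutive Hsp90, was 0.27 ± 0.022 higher in KO1 and 0.27 ± 0.022 lower in KO2. On the spike-in scale both genes were higher in KO2, by 0.18 ± 0.030 and 0.30 ± 0.028, so their direction in KO2 rests on the scaling. The ER and mitochondrial genes went other ways. Hspa5 had 1174 and 1169 CPM in KO1, 1078 and 1055 CPM in KO2, and 973 and 1017 CPM in control, a rise of 0.24 ± 0.028 and 0.10 ± 0.028. The rise in KO2 missed the threshold without KO2 replicate 1 (adjusted p = 0.0607, edgeR) but was 0.66 ± 0.032 with spike-ins. Hspd1 had 1067 and 1024 CPM in KO1, 1013 and 1008 CPM in KO2, and 687 and 700 CPM in control. It was higher by 0.59 ± 0.028 and 0.54 ± 0.028, and by more on the spike-in scale (0.77 ± 0.033 and 1.11 ± 0.033).

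Herpud1 separated the lines. It had 11.1 and 10.8 CPM in KO1, 37.7 and 38.4 CPM in KO2, and 47.1 and 51.1 CPM in control. KO1 lay far below both other groups, with a log2 fold change of -2.17 ± 0.082, while KO2 was lower by 0.37 ± 0.072, or higher by 0.19 ± 0.0744 with spike-ins (adjusted p = 0.0175, edgeR). KO1 minus KO2 was -1.80 ± 0.084 (adjusted p = 7.79e-32, edgeR) and -2.18 ± 0.086 with spike-ins. Of the 10 genes, 8 differed between the lines at a background of 46.1% (24.5% higher and 21.6% lower in KO1), and Dnajb1 and Hspd1 did not pass (adjusted p = 0.105 and 0.149, edgeR). That made 7 higher and 1 lower in KO1 than in KO2, against 4 higher and 5 lower with spike-ins (background 55.7% called, 7.63% higher and 48.1% lower). Hspa1a was 1.56 ± 0.39 higher in KO1 than in KO2, against 1.08 without KO1 replicate 1, which missed the threshold (adjusted p = 0.0772, edgeR). The summed level of 9 fibroblast feeder markers (a list of 10 without Fn1, which is high in every group) was 220 to 225 CPM in KO1, 596 to 600 CPM in KO2 and 223 to 240 CPM in control. Col1a1 alone had 264 to 270 CPM in KO2 and Acta2 90.2 to 96.1 CPM. Of the 10 markers, 8 reached 1 CPM in the KO lines and 7 or 8 in control. The part of such cells in the KO2 values was not tested.

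**Figure D2:**
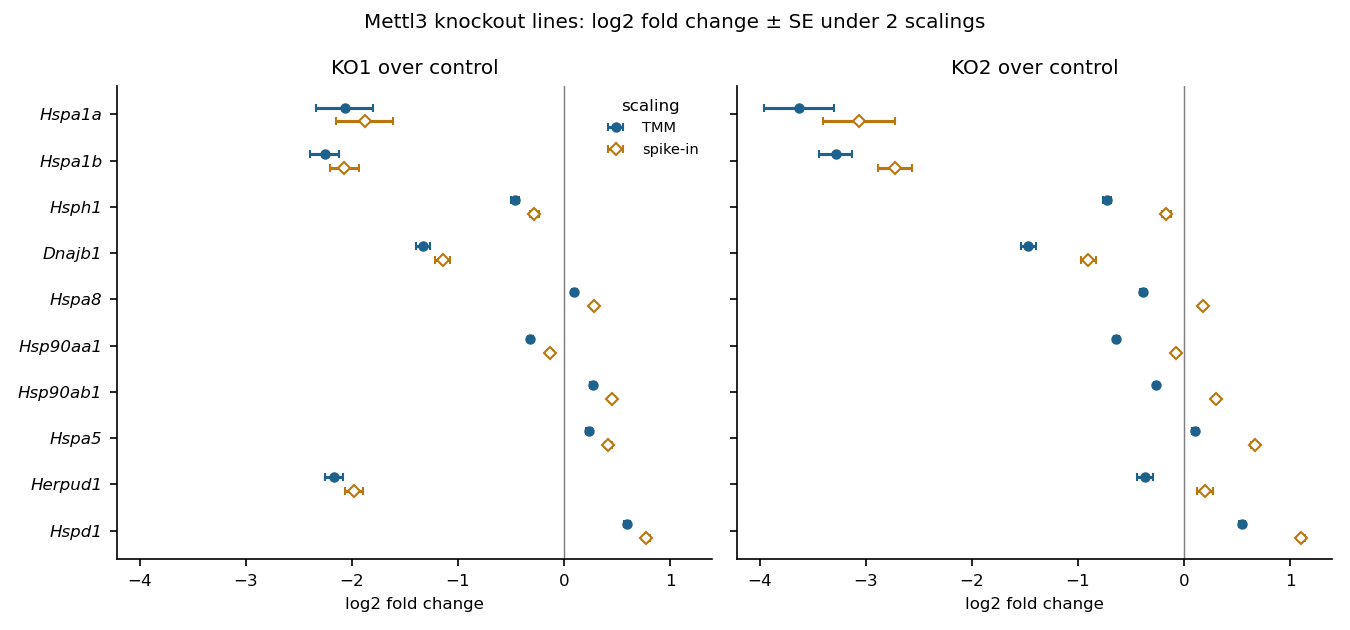
Log2 fold change (x axis, ± SE) of each RNA in KO1 over control (left) and KO2 over control (right), with filled circles for TMM and open diamonds for spike-in scaling. In KO2, Hspa8, Hsp90ab1 and Herpud1 cross 0 between the scalings.

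Other chaperone genes were taken from lists and tested in the same fits. Over all genes, 23.9% were higher and 22.2% lower in KO1, and 24.4% higher and 26.4% lower in KO2. With spike-ins these shares were 34.8% higher and 13.7% lower in KO1, and 56.7% higher and 6.69% lower in KO2. The median change of all genes with spike-ins was 0.169 in KO1 and 0.533 in KO2. Of 14 subunits of the cytosolic chaperonin CCT and of prefoldin, which fold actin and tubulin, 11 were higher and 1 lower in KO1 (median 0.35), with Tcp1 0.49 ± 0.030 and Cct6a 0.46 ± 0.034 higher. In KO2, 2 were higher and 2 lower, and Cct7 fell by 1.07 ± 0.034. With spike-ins 12 were higher and 0 lower in KO1, and 13 higher and 1 lower in KO2 (median 0.578, near the 0.533 of all genes). Of 12 Hsp90 co-chaperones, 6 rose and 1 fell in KO1, against 2 and 10 in KO2, where Fkbp4 was 0.81 ± 0.034 lower and Ptges3 0.65 ± 0.038 lower. With spike-ins KO1 had 10 higher and 1 lower, and KO2 7 higher and 2 lower. Of 10 mitochondrial chaperones and proteases, 7 rose and 1 fell in KO1 and 5 rose and 1 fell in KO2, or 9 and 1 in KO1 and 10 and 0 in KO2 with spike-ins. Lonp1, a matrix protease, rose by 0.76 ± 0.038 in KO1 and 0.54 ± 0.038 in KO2, and Trap1, the mitochondrial Hsp90, by 0.42 ± 0.040 and 0.38 ± 0.040. Among 9 tested other members of the Hsp70 and Hsp110 families, 2 rose and 3 fell in KO1, and 2 rose and 5 fell in KO2. With spike-ins 4 rose and 1 fell in KO1, and 6 rose and 1 fell in KO2. Hspa4l, an Hsp110 protein, fell by 1.07 ± 0.14 in KO1 and 1.51 ± 0.15 in KO2. In the ER, Calr, a lectin chaperone, fell by 0.78 ± 0.024 and 0.83 ± 0.024. Of 14 tested ER chaperones and folding enzymes, 7 rose and 2 fell in KO1 and 8 rose and 2 fell in KO2, or 11 and 1 in KO1 and 13 and 1 in KO2 with spike-ins. Of 10 sensors and factors of the unfolded protein response, 2 rose and 5 fell in KO1, and Ddit3, which encodes CHOP, was 1.35 ± 0.10 lower there. In KO2, 4 rose and 3 fell, and Ddit3 was 0.39 ± 0.095 lower, a call absent with spike-ins (adjusted p = 0.119, edgeR). With spike-ins this list had 5 higher and 3 lower in KO1, and 8 higher and 1 lower in KO2.

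Before the drug, the 10 RNAs differed little between the libraries labelled cKO and control. Of the 10, 2 passed at 0 h, at a background of 29.4% of 17900 genes (13.5% higher and 15.8% lower). Hspa8 had 1169 and 1076 CPM in cKO and 1356 and 1351 CPM in control, a log2 difference of -0.27 ± 0.044 (adjusted p = 7.49e-06, edgeR). Hsph1 had 313 and 300 CPM in cKO and 273 and 281 CPM in control, 0.15 ± 0.056 higher (adjusted p = 0.0424, edgeR), and did not pass in 11 of 12 fits that left out 1 library. With spike-ins 7 genes were lower and 0 higher (background 46.7% called, 4.41% higher and 42.3% lower), and of the 2 genes Hspa8 kept its direction while Hsph1 turned (-0.22 ± 0.062). Hsp90aa1 (1043 and 831 CPM in cKO, 850 and 781 CPM in control) and Hspd1 (388 and 291 CPM in cKO, 403 and 402 CPM in control) spread most between cKO replicates. By contrast 12 of 14 CCT and prefoldin genes were lower and none higher in cKO, with a median of -0.368 (all genes 0.0138), among them Cct4 by 0.63 ± 0.045 and Cct6a by 0.48 ± 0.048. Of 12 Hsp90 co-chaperones 8 were lower and none higher, with Fkbp4, an Hsp90-bound immunophilin, lower by 0.79 ± 0.047 and Stip1, which links Hsp70 to Hsp90, by 0.46 ± 0.051. Hspe1, the partner of Hspd1, fell by 0.59 ± 0.076. Markers moved beside these lists. Of the 8 embryonic stem cell markers, 5 were lower and 1 higher in cKO (median -0.373), with a summed level of 2300 and 2370 CPM in cKO and 2940 and 2960 CPM in control. Of 7 tested fibroblast feeder markers, 3 were higher and 1 lower (median 1.11), and the summed level of the list was 3180 and 3380 CPM in cKO and 2540 and 2690 CPM in control, or 14.2 to 15.4 CPM in cKO and 10.9 to 12.6 CPM in control without Fn1. Their part in the lower CCT and co-chaperone levels was not tested.

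The actinomycin D chase asks which RNAs persist when new transcription is blocked, read here as change relative to the other RNAs in the library. After 6 h, 5 chaperone RNAs stood higher and 3 lower in cKO, at a background of 60.9% called (29.6% higher and 31.3% lower). In control, 5 also stood higher and 3 lower, at a background of 64.8% called (33.1% higher and 31.7% lower). Hsp90ab1, the constitutive Hsp90, had the highest change in both genotypes. In cKO it had 5151 and 5354 CPM at 6 h against 2656 and 2699 CPM at 0 h (0.97 ± 0.034), and in control 6183 and 6303 CPM at 6 h against 2799 and 2796 CPM at 0 h (1.16 ± 0.034). Hspa5 rose by 0.61 ± 0.045 in cKO and 0.64 ± 0.045 in control, Hsp90aa1 by 0.80 ± 0.11 and 0.62 ± 0.11, Hspd1 by 0.82 ± 0.11 and 0.41 ± 0.11, and Hspa8 by 0.40 ± 0.044 and 0.23 ± 0.044. The Hspd1 call in control was lost without control 6 h replicate 2 (adjusted p = 0.0528, edgeR). Dnajb1, Herpud1 and Hsph1 fell. Dnajb1 had 23.9 and 25.1 CPM at 6 h in cKO against 35.2 and 38.1 CPM at 0 h, and 18.8 and 19.9 CPM at 6 h in control against 38.3 and 34.6 CPM at 0 h. It fell by 0.57 ± 0.12 in cKO and 0.91 ± 0.12 in control. Herpud1 fell by 0.63 ± 0.17 in cKO and 0.80 ± 0.18 in control, and Hsph1 by 0.60 ± 0.057 and 0.19 ± 0.056. Hspa1a and Hspa1b had 8 to 64 reads in the 0 and 6 h libraries and passed in neither genotype with TMM. With spike-ins Hspa1b changed by -1.22 ± 0.317 in cKO and -1.21 ± 0.305 in control, and Hspa1a was called in control (-1.10 ± 0.453, adjusted p = 0.0304, edgeR) but not in cKO (-0.72 ± 0.457, adjusted p = 0.156, edgeR).

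**Figure D3:**
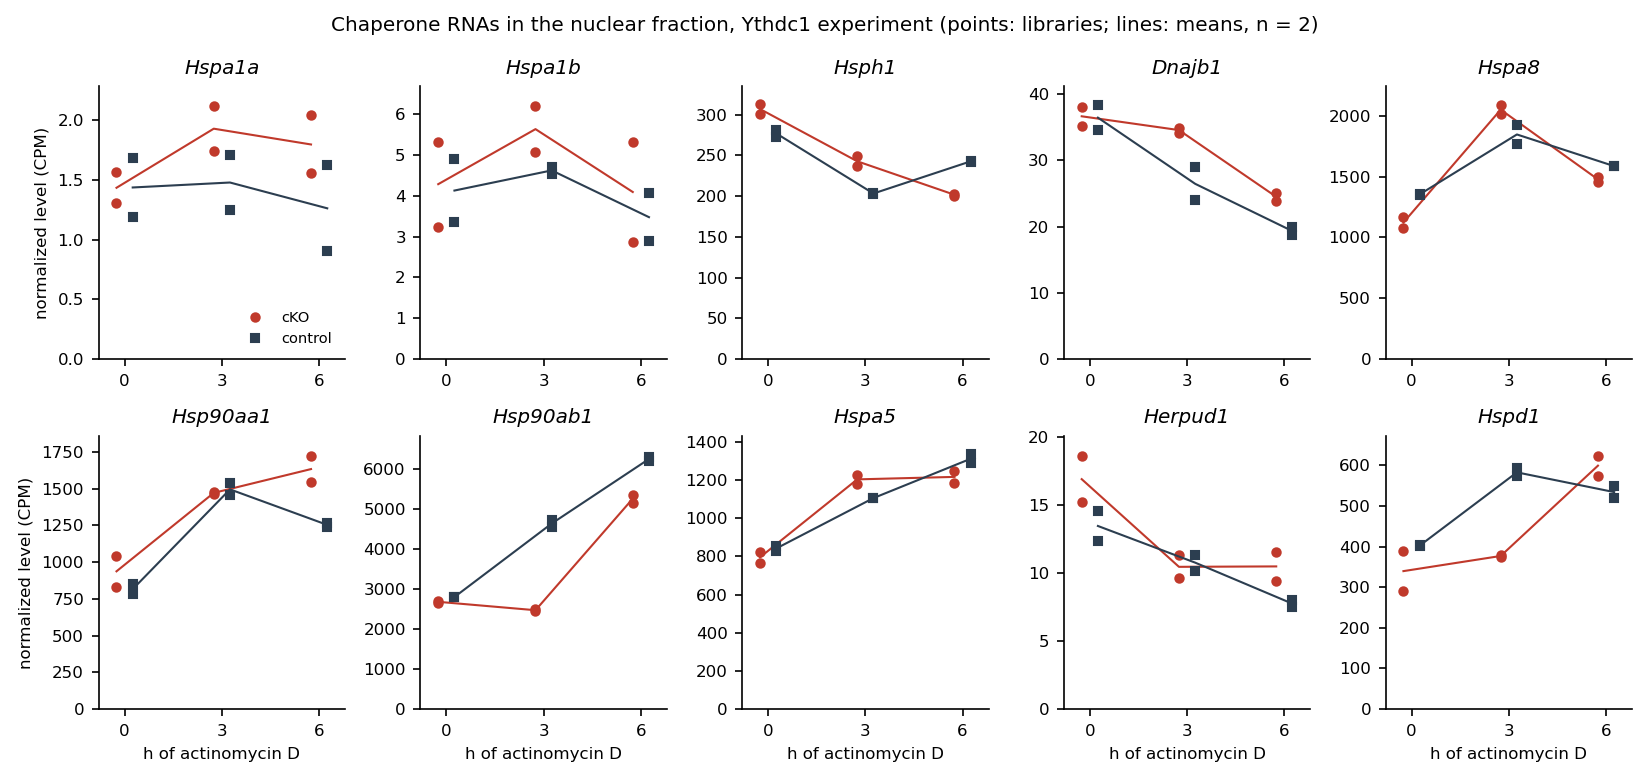
Normalized level (CPM, y axis) of each RNA at 0, 3 and 6 h of actinomycin D (x axis) in the cKO (red circles) and control (dark squares) libraries, with lines through means of 2. At 3 h both cKO points of Hsp90ab1 and of Hspd1 lie below both control points.

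The 6 h rises depended on the scale. Reads assigned to no gene feature, as a share of uniquely placed reads, were 18.3% and 18% in cKO at 6 h against 53.5% and 52.3% at 0 h, and 21.0% and 21.0% in control at 6 h against 50.1% and 49.7% at 0 h. Their part in the relative rises was not tested. With spike-ins, where the median change of all genes was -0.964 in cKO and -0.884 in control, 0 of the 10 were called higher and 7 lower in cKO at 6 h (background 71.7% called, 3.28% higher and 68.4% lower), and 1 was higher and 9 lower in control (background 70.4% called, 7.33% higher and 63% lower). Hsp90ab1 was the 1 higher (0.24 ± 0.043), and in cKO it stood level with 0 h (0.0032 ± 0.043). Dnajb1, Herpud1 and Hsph1 fell by 1.54 ± 0.12, 1.61 ± 0.17 and 1.57 ± 0.064 in cKO and by 1.83 ± 0.12, 1.72 ± 0.18 and 1.11 ± 0.062 in control. On both scales Hsp90ab1 had the highest log2 change and Dnajb1 and Herpud1 were among the lowest 3. Fewer cells and less RNA per cell cannot be told apart in bulk RNA.

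**Figure D4:**
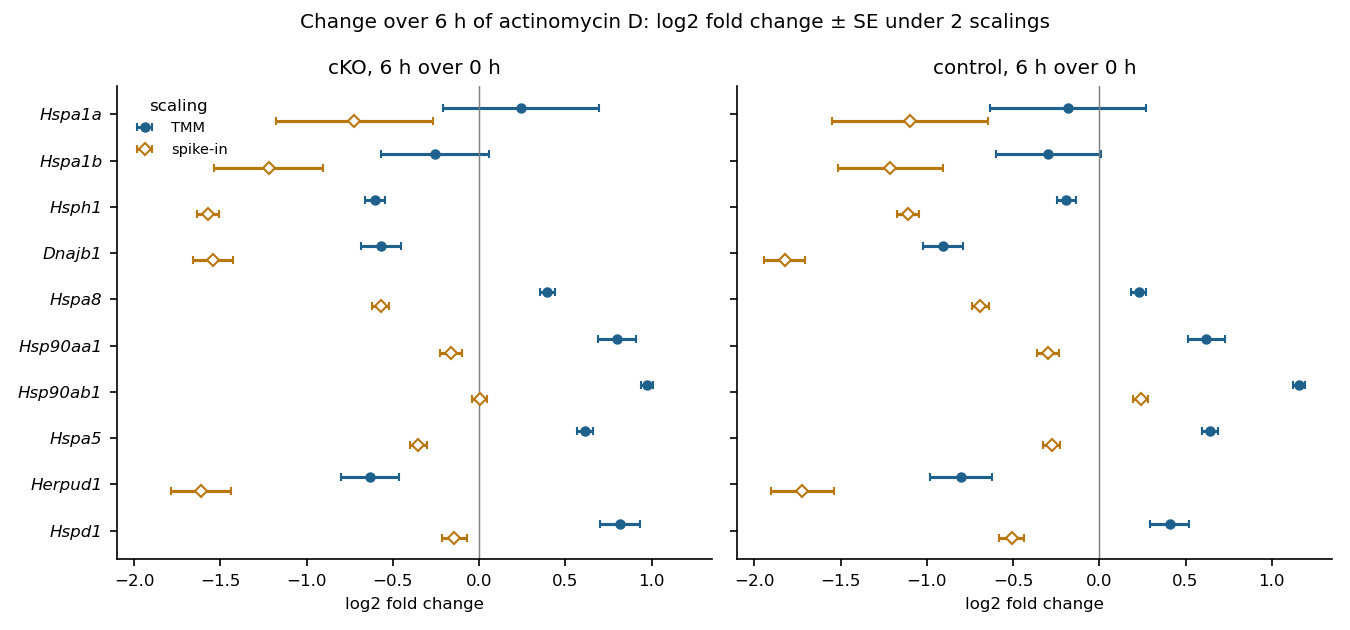
Log2 fold change (x axis, ± SE) of each RNA from 0 to 6 h of actinomycin D in cKO (left) and control (right), with filled circles for TMM and open diamonds for spike-in scaling. On the spike-in scale Hsp90ab1 is the 1 gene at or above 0 in either panel.

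At 3 h the genotypes parted most in Hsp90ab1. It had 2442 and 2494 CPM in cKO and 4548 and 4715 CPM in control, a difference of -0.91 ± 0.034 (adjusted p = 4.99e-22, edgeR). In cKO it had fallen by 0.12 ± 0.034 since 0 h (not called without cKO 3 h replicate 1, adjusted p = 0.145, edgeR) and in control it had risen by 0.73 ± 0.034, and the difference in the 3 h change was -0.84 ± 0.048 (adjusted p = 9.73e-16, edgeR). Hspd1 had 375 and 380 CPM in cKO and 573 and 593 CPM in control (-0.63 ± 0.11), but its difference in change did not pass (-0.38 ± 0.16, adjusted p = 0.151, edgeR). At 3 h, 6 of 10 genes differed at a background of 43% (22.3% higher and 20.7% lower). Hsph1 (0.26 ± 0.055), Dnajb1 (0.38 ± 0.10), Hspa8 (0.15 ± 0.044) and Hspa5 (0.12 ± 0.045) were higher in cKO. Without control 3 h replicate 1 the count was 3, with Dnajb1 at 0.25 (adjusted p = 0.112, edgeR), Hspa8 at 0.086 (adjusted p = 0.243, edgeR) and Hspa5 at 0.12 (adjusted p = 0.115, edgeR) no longer called. Hspa8 also lost its call without cKO 3 h replicate 2 (adjusted p = 0.107, edgeR), and Hspa5 lost it in 5 of 12 fits that left out 1 library. Of the 10, 6 changed over 3 h in cKO (3 higher and 3 lower, background 59.4%, with 29.6% higher and 29.8% lower) and 7 in control (5 higher and 2 lower, background 56.5%, with 29.3% higher and 27.1% lower). With spike-ins, control had 2 higher and 4 lower at 3 h (background 58.3% called, 7.19% higher and 51.1% lower). In cKO, Hspa8 had 2012 and 2086 CPM at 3 h against 1169 and 1076 CPM at 0 h, and in control 1768 and 1923 CPM at 3 h against 1356 and 1351 CPM at 0 h. The difference in the 3 h change passed for 3 of 10 genes at a background of 19.4% (11% higher and 8.39% lower), namely Hsp90ab1, Hspa8 (0.42 ± 0.062) and Hspa5 (0.20 ± 0.064). The Hspa5 call was lost in 4 of 12 fits that left out 1 library (adjusted p up to 0.151, edgeR). All of these are relative to other genes: with spike-ins, where the 3 h cKO libraries hold few spike-in reads and the median gene is 2 log2 units above control, 10 of 10 were called higher in cKO at 3 h (background 93.3%), Hsp90ab1 the least, by 1.08 ± 0.044. Also with spike-ins, 10 of 10 were higher in cKO at 3 h than at 0 h (background 86.4% called, 83.8% higher and 2.69% lower), and the 3 h difference was called higher for 10 of 10 (background 89.4%).

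At 6 h the gap in Hsp90ab1 had narrowed. It had 5151 and 5354 CPM in cKO and 6183 and 6303 CPM in control (-0.25 ± 0.034). Of the 10 genes, 6 differed at a background of 42.4% (19.7% higher and 22.7% lower), Dnajb1 (0.35 ± 0.12), Hsp90aa1 (0.38 ± 0.11) and Herpud1 (0.49 ± 0.19) higher in cKO and Hsph1 (-0.27 ± 0.057), Hsp90ab1 and Hspa5 (-0.11 ± 0.045) lower. The count was 2 without control 6 h replicate 1 and 3 without control 6 h replicate 2 or cKO 6 h replicate 2; Hspa5 was at 0.0033 with library size alone. Of fits that left out 1 library, Hspa5 lost its call in 10 of 12, Hsp90aa1 and Herpud1 in 3 each and Dnajb1 in 2. Herpud1 was at 0.27 without cKO 6 h replicate 2 (adjusted p = 0.519, edgeR). With spike-ins, 0 of the 10 were called higher in cKO and 5 lower (background 53.1% called, 6.59% higher and 46.5% lower), and Dnajb1, Hsp90aa1 and Herpud1 were not called (adjusted p = 0.653, 0.671 and 0.815, edgeR). The difference in the 6 h change passed for Hsph1 (-0.41 ± 0.080, adjusted p = 0.000185, edgeR) and Hsp90ab1 (-0.19 ± 0.048, adjusted p = 0.00476, edgeR), at a background of 19.1% (9.77% higher and 9.35% lower). The count ran from 1, with the Hsp90ab1 call lost (without control 0 h replicate 1, control 6 h replicate 2 or cKO 6 h replicate 1) to 5 (without cKO 0 h replicate 1). Hsph1 fell in cKO to 201 and 203 CPM at 6 h, against 313 and 300 CPM at 0 h, and control held 243 and 242 CPM at 6 h against 273 and 281 CPM at 0 h. With spike-ins the 2 genes kept their direction (-0.46 ± 0.088 and -0.24 ± 0.061) and Hspd1 was called as well (0.36 ± 0.10, background 17.9% called, 7.52% higher and 10.3% lower).

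Within a library, ratios of 2 members carry no scaling. Hsp90ab1 reads per Hsp90aa1 read were 2.55 and 3.25 in cKO and 3.29 and 3.58 in control at 0 h, 1.65 and 1.70 in cKO and 3.13 and 3.07 in control at 3 h, and 2.99 and 3.47 in cKO and 4.88 and 5.08 in control at 6 h. At 3 and 6 h both cKO libraries lay below both controls. At 0 h the groups nearly met, at 3.25 in cKO and 3.29 in control. Neither Hsp90ab1 nor Hsp90aa1 passed the test at 0 h (adjusted p = 0.166 and 0.229, edgeR). The ratios were not tested, and Hsp90aa1 counts carry the shared stretches given above. In the Mettl3 libraries the ratio was 1.43 and 1.41 in KO1, 1.21 and 1.24 in KO2, and 0.961 and 0.930 in control, with both lines above their control. Hspa1b reads per 1000 Hspa8 reads were 1.78 and 1.28 in KO1, 1.27 and 0.85 in KO2, and 7.61 and 8.37 in control. Herpud1 reads per 1000 Hspa5 reads were 9.43 and 9.21 in KO1, 35.0 and 36.4 in KO2, and 48.4 and 50.3 in control.

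**Figure D5:**
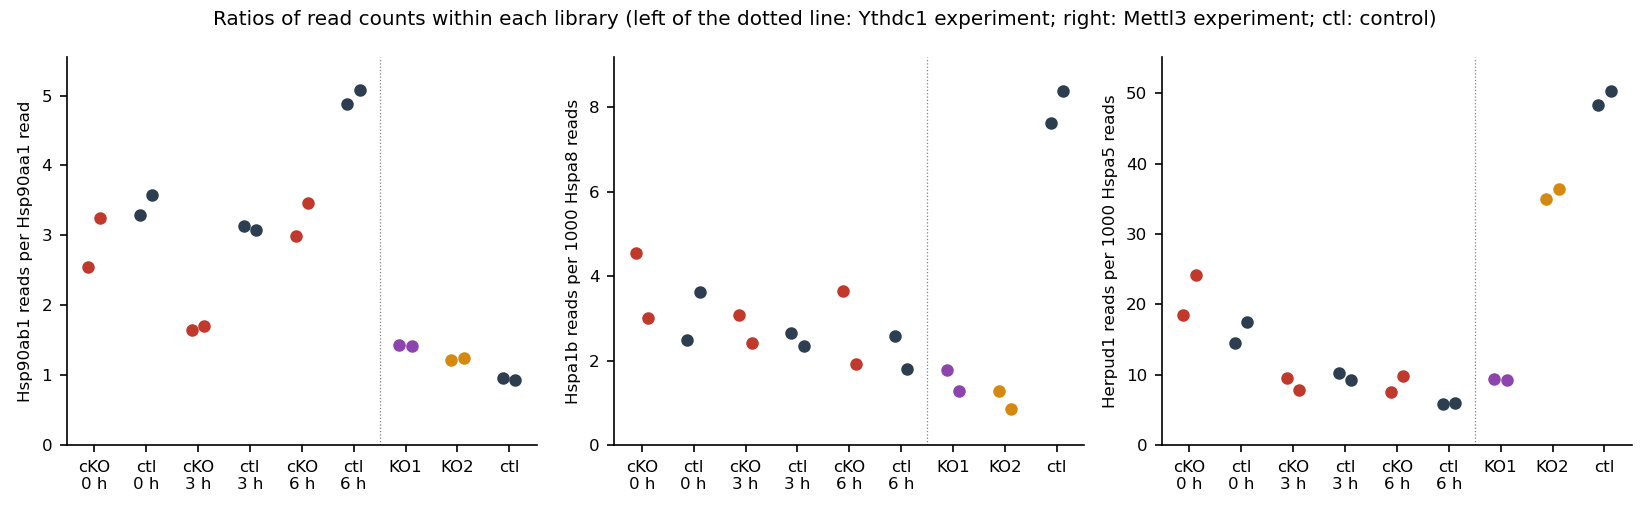
Ratios of raw read counts within each library (y axes) for Hsp90ab1 to Hsp90aa1, Hspa1b to Hspa8 and Herpud1 to Hspa5, with 2 points per group (x axis, drug times in h for the Ythdc1 groups). The Mettl3 control stands alone in Hspa1b, and KO1 lies far below KO2 and control in Herpud1.

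In the chase the same gene lists were tested. Over all genes at 6 h, 29.6% were higher and 31.3% lower in cKO, and 33.1% higher and 31.7% lower in control. With spike-ins, 3.28% were higher and 68.4% lower in cKO, and 7.33% higher and 63% lower in control. At 6 h, 14 of 14 tested ER chaperones and folding enzymes rose in cKO (median 1.08, all genes 0.00845) and 12 rose and none fell in control (median 1.06, all genes 0.0327). P4hb, a disulfide isomerase, rose by 1.31 ± 0.040 in cKO and 1.38 ± 0.040 in control, and Calr by 1.09 ± 0.046 and 1.57 ± 0.046. With spike-ins, 6 were higher and 5 lower in cKO, and 7 and 4 in control. Sensors and factors of the unfolded protein response went the other way, with 9 of 10 lower and 1 higher in cKO and 5 lower and 2 higher in control, among them Xbp1 by -1.62 ± 0.081 in cKO and -1.56 ± 0.078 in control, and Atf4 by -1.36 ± 0.076 and -1.46 ± 0.074. With spike-ins 10 of 10 were lower in cKO and 10 of 10 in control. Of 14 CCT and prefoldin genes, 14 rose in cKO, and 10 rose and 1 fell in control. With spike-ins 10 were lower and 0 higher in cKO, and 11 lower and 1 higher in control. Their spike-in median was -0.215 in cKO (all genes -0.964) and -0.53 in control (all genes -0.884). The 6 h difference passed as higher in cKO for 7 of them and lower for 2 (background 9.77% higher and 9.35% lower). Among these was Cct4 at 0.64 ± 0.063, a gene that had started lower in cKO. Among 18 J-domain genes, 5 rose and 7 fell in cKO, and 5 rose and 11 fell in control. Dnaja1 fell by 0.55 ± 0.082 in cKO and 1.27 ± 0.083 in control. With spike-ins 0 of the 18 were higher and 17 lower in each genotype. Small heat shock proteins held mostly level with TMM, with 1 of 6 higher and 0 lower in each genotype. With spike-ins 1 was higher and 3 lower in cKO, and 1 higher and 2 lower in control. Hspb1, a small heat shock protein, rose by 1.24 ± 0.081 in cKO and 2.04 ± 0.080 in control, and at 3 h was 1.34 ± 0.080 below control in the cKO libraries. Hsf1, the heat shock transcription factor, was 1.11 ± 0.11 lower in cKO at 3 h and 0.94 ± 0.11 lower at 6 h, with -0.16 ± 0.10 and no call at 0 h. The 3 h directions of Hspb1 and Hsf1 are relative to other genes. With spike-ins, 6 of 6 small heat shock proteins were called higher in cKO than in control at 3 h (background 93.3% higher). Of 5 heat shock transcription factors and their binding protein, Hsf1 among them, 4 were higher and 0 lower.

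The Mettl3 control was set beside the Ythdc1 control at 0 h with no test, since experiment and line cannot be told apart. Scaled over all 18 libraries, Hsp90aa1 had 5300 and 5540 CPM in the Mettl3 control and 875 and 809 CPM in the Ythdc1 control, a ratio of 6.43. The ratio was 5.58 for Hspa1b, 3.54 for Hspa1a, 3.30 for Herpud1, 2.13 for Hspa8 and 1.82 for Dnajb1. It was 1.77 for Hsp90ab1, 1.56 for Hspd1 and 1.07 for Hspa5, and Hsph1 was the 1 gene below (0.841). Over all 20155 genes compared, the log2 ratio had a median of -0.0387, with 5% and 95% points at -2.23 and 3.01. Over the means of the 9 groups, Hspa1a and Hspa1b correlated at r = 0.91 and Hspa8 and Hsp90aa1 at r = 0.919, while Hsph1 and Hspd1 ran opposite at r = -0.921. The groups come from both experiments, which differ in level as above. The part of that difference in these and the following correlations was not tested. The protein-coding genes with the most similar pattern, among 11429 searched, began with Smyd1 for Hspa1b (r = 0.964) and Itpripl1 for Dnajb1 (0.956). Others were Smim11 for Hsp90aa1 (0.987), Ndufv3 for Hsp90ab1 (0.979), Chac1 for Herpud1 (0.958) and 1700030K09Rik for Hspa1a (0.934). The rest were Nkiras1 for Hsph1 (0.928), Sarnp for Hspa8 (0.979), Spata24 for Hspa5 (0.982) and Ank for Hspd1 (0.98). Each r is the highest of 11429 over only 9 means, and the r reached by such selection alone was not tested.

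The GGACT letters, 1 form of the m6A context, occurred 2.05 times per kb in the longest transcript of Herpud1 and 2.02 in that of Hspa1a, against a median of 1.02 over 21405 genes and 1.07 in Hspa1b. Hsp90ab1 (0.397 per kb) and Hspa8 (0.418 per kb) were lowest. Dnajb1 had 1.67 per kb, Hsp90aa1 1.52, Hspa5 1.09, Hspd1 0.825 and Hsph1 0.526. A relation of these densities to the changes was not tested. Hspa1a and Hspa1b have 1 exon, and the others 3 to 18 in their longest transcript. Whether these letters carry the mark was not measured in these files.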

How the data were processed

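Nuclear RNA depleted of ribosomal RNA was sequenced with a stranded total RNA kit after ERCC spike-in, per the labels' protocols. The deposited values are read counts per gene, made by the authors with CASAVA, Trimmomatic 0.38, HISAT2 2.1.0 and HTSeq on mm10, per the submitters' processing notes. Strand setting, annotation release and other versions: not given in the sources used here. Gene reads per library ran from 4950973 to 30989044, and 5 summary lines and 92 spike-in rows stayed out of library sizes. Intervals and tests cover the libraries only. The 12 Ythdc1 and the 6 Mettl3 libraries were fitted apart with edgeR 4.0.16 in R 4.3.3 (TMM, filterByExpr with a minimum count of 10, robust quasi-likelihood F test, 1 coefficient per group), with Benjamini-Hochberg adjustment over all 17900 and 21802 genes kept and a threshold of 0.05; all 10 members were kept in both. The fits were tested on simulated data, drawn with 1 common spread for all genes, unlike real genes. For cKO over control at 0 h, 97% of log2 changes of 1 and 59% of changes of 0.5 were recovered. For KO1 over control these shares were 98% and 81%. Small changes can therefore miss the threshold. CPM and RPKM used TMM library sizes and GENCODE M21 exon lengths (54409 of 54446 gene identifiers matched). Deviations of same-numbered libraries correlated weakly (r from -0.0337 to 0.0426), and the main fits paired no libraries. Such correlations cannot show whether libraries were prepared in pairs. Replicates differed by more than counting noise (chi-square per degree of freedom 1.75 to 6.72). Alternatives were spike-in scaling, library size alone, DESeq2 1.42.0 size factors and Wald test, other filters, 1 joint fit, a replicate block and leaving out libraries. The members, the other gene lists and the promoter motifs were chosen with earlier results of these data known. Named genes are the 10 members, the 2 targeted genes, up to 3 called genes with the lowest adjusted p per list and comparison, and the most similar gene per member; other list genes named for a second comparison were chosen after their values were seen.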

Additional observations from a re-analysis of the deposited data

Results flagged for a closer look

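Among the 10 genes, 8 differed between the 2 Mettl3 lines in a test of the difference itself (edgeR, adjusted p under 0.05). KO1 minus KO2 on the log2 scale was -1.80 for Herpud1, 0.32 for Hsp90aa1, 0.54 for Hsp90ab1, 1.56 for Hspa1a, 1.03 for Hspa1b, 0.14 for Hspa5, 0.49 for Hspa8 and 0.27 for Hsph1. With spike-ins the sign turned for Hsp90aa1, Hspa5 and Hsph1. Fibroblast feeder markers were higher in KO2 than in KO1, and their part in these differences was not tested.

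The 3 h change under actinomycin D differed between genotypes for Hsp90ab1 (cKO minus control -0.84), Hspa5 (0.20) and Hspa8 (0.42), and the 6 h change for Hsp90ab1 (-0.19) and Hsph1 (-0.41). At 3 h the spike-in share of the cKO libraries stood apart, and with spike-ins Hsp90ab1 turned sign there.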

How the results depend on the processing

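Log2 changes kept direction and call in 63 of 120 gene-by-comparison values with spike-in scaling (36 reversed), 111 in 1 fit of all 18 libraries, 115 with DESeq2 size factors, 115 with the DESeq2 Wald test, 107 with library size alone, 105 with no filter, 107 of 111 with a stricter filter, and 1192 of 1260 when 1 library was left out. The cause of the reversals was not tested.

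With spike-ins, these values, called under at least 1 of the 2 scalings, turned sign; values called under neither are not listed. In cKO at 3 h over 0 h: Dnajb1 1.75, Herpud1 1.13, Hsp90ab1 1.71, Hsph1 1.496. In cKO at 6 h over 0 h: Hsp90aa1 -0.16, Hspa5 -0.35, Hspa8 -0.57, Hspd1 -0.14. In control at 3 h: Hspa5 -0.13, Hspa8 -0.078, and at 6 h: Hsp90aa1 -0.30, Hspa5 -0.28, Hspa8 -0.69, Hspd1 -0.51. For cKO over control at 0 h: Dnajb1 -0.35, Hsp90aa1 -0.17, Hsph1 -0.22. At 3 h: Herpud1 1.94, Hsp90aa1 1.97, Hsp90ab1 1.08, Hspd1 1.36. At 6 h: Dnajb1 -0.073, Hsp90aa1 -0.036, Hspd1 -0.25. For the genotype difference in the 3 h change: Herpud1 1.99, Hsp90aa1 2.14, Hsp90ab1 1.51, Hspd1 1.98. For KO2 over control: Herpud1 0.19, Hsp90ab1 0.30, Hspa8 0.18. For KO1 over KO2: Dnajb1 -0.24, Hsp90aa1 -0.061, Hspa5 -0.24, Hspd1 -0.33, Hsph1 -0.11. With library size alone, Hspa5 in cKO over control at 6 h was 0.0033.

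Over all genes, spike-ins gave 8361 calls for cKO over control at 0 h, 16708 at 3 h and 15997 for the 3 h difference, against 5255, 7695 and 3476 with TMM. Leaving out 1 library gave 3475 (without control 0 h replicate 2) to 5555 at 0 h. Of the 10 genes, spike-ins called 10 in cKO at 3 h over 0 h, 7 for cKO over control at 0 h, 10 at 3 h and 10 for the 3 h difference. At 0 h the DESeq2 Wald test called 1, the fit without both cKO 3 h libraries (chosen after seeing the data) 1, and leaving out 1 library 1 to 3. Leaving out 1 library gave 3 to 6 at 3 h and 2 to 8 at 6 h. For the 6 h difference, 1 fit of all libraries called 4, library size alone 4, no filter 5, and leaving out 1 library 1 to 5.

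Replicate numbers were not used as pairs in the main fits. With the replicate block, 118 of 120 values kept their call and 2 gained one, Hspa8 in cKO over control at 6 h (-0.10, adjusted p = 0.0299, edgeR) and its 6 h difference (0.17, adjusted p = 0.0259, edgeR). Few reads limit Hspa1a and Hspa1b.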
